A study of Schizosaccharomyces pombe with 8 samples.

Results

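The genes of the respiratory chain and of the ATP synthase of *Schizosaccharomyces pombe* were examined in poly(A)-selected RNA from 4 groups of cells. They were taken by name, as every gene called *atp*, *cox*, *qcr*, *cyt*, *cyc*, *rip*, *sdh*, *ndi* or *nde* followed by a number, if its 8 values averaged 10 normalized counts or more. This gave 58 genes of the 5165 in the data, 56 of them in the nucleus and 2, *cox1* and *cox2*, in mitochondrial DNA. A further 4 genes fitted the names but fell under the minimum, all encoded in mitochondrial DNA: *atp9* (mean of 6.63 normalized counts), *cox3* (5.27), *atp6* (0.635) and *atp8* (0). The groups were Δ*top1* cells (strain RF14) treated with 1 mM H2O2 for 30 min, untreated Δ*top1* cells, wild-type (WT) cells (strain 972) given the same treatment, and untreated WT cells. All were grown in YE5S at 30ºC, with 2 libraries in each group that the study describes as biological replicates, and the deletion was represented by a single strain.

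The respiratory chain passes electrons from NADH and succinate to oxygen and pumps protons across the mitochondrial inner membrane, and the ATP synthase uses the return of those protons to make ATP. Fission yeast has no proton-pumping complex I, and its NADH is oxidized by simpler NADH dehydrogenases. Complex II (succinate dehydrogenase) feeds in electrons from succinate, complex III hands them to cytochrome c, and complex IV (cytochrome c oxidase) passes them to oxygen. Most subunits are made from nuclear genes, while the catalytic core of complex IV and the proton channel of the ATP synthase come from mitochondrial DNA. Complexes II, III and IV carry iron-sulfur clusters, heme or copper.

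The libraries held between 16090015 and 19899720 reads on genes, and the 58 genes took between 1.19% and 1.35% of them. A log2 fold change below compares means of log2(normalized count + 1), its error is a standard error (SE), and a gene was called at an adjusted p under 0.1 in limma with Benjamini-Hochberg adjustment over the 5019 genes tested. The *top1* transcript itself was at 244 and 244 normalized counts in treated Δ*top1* cells and at 309 and 286 in untreated Δ*top1* cells, against 2013 and 2513 in treated and 1967 and 2150 in untreated WT cells. Scaling bears on every direction given here. With each library brought to the same total in place of the deposited scaling, the median of all genes moved to a log2 change of −0.20 in Δ*top1* and −0.37 in WT cells, and with the same upper quartile to −0.24 and −0.28. Under the deposited scaling it was −0.00 and 0.00.

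The complexes did not move together with H2O2. In Δ*top1* cells 36 of the 58 genes rose (62.1%, against 35.9% of all genes tested) and 10 fell (17.2%, against 34.9%). In WT cells 37 rose (63.8%, against 36.4%) and 8 fell (13.8%, against 35.6%). The median log2 change of the 58 genes was 0.35 in Δ*top1* and 0.38 in WT cells. With the same total 22 rose and 14 fell in Δ*top1* cells and 17 rose and 17 fell in WT cells, where the medians of all genes are shifted down and 45.8% and 56.2% of all genes tested were called lower and 26.9% and 21.3% higher. By their medians the ATP synthase, complex III and the NADH dehydrogenases lay on the higher side and complex II on the lower side in both strains, under each scaling.

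**Figure D1:**
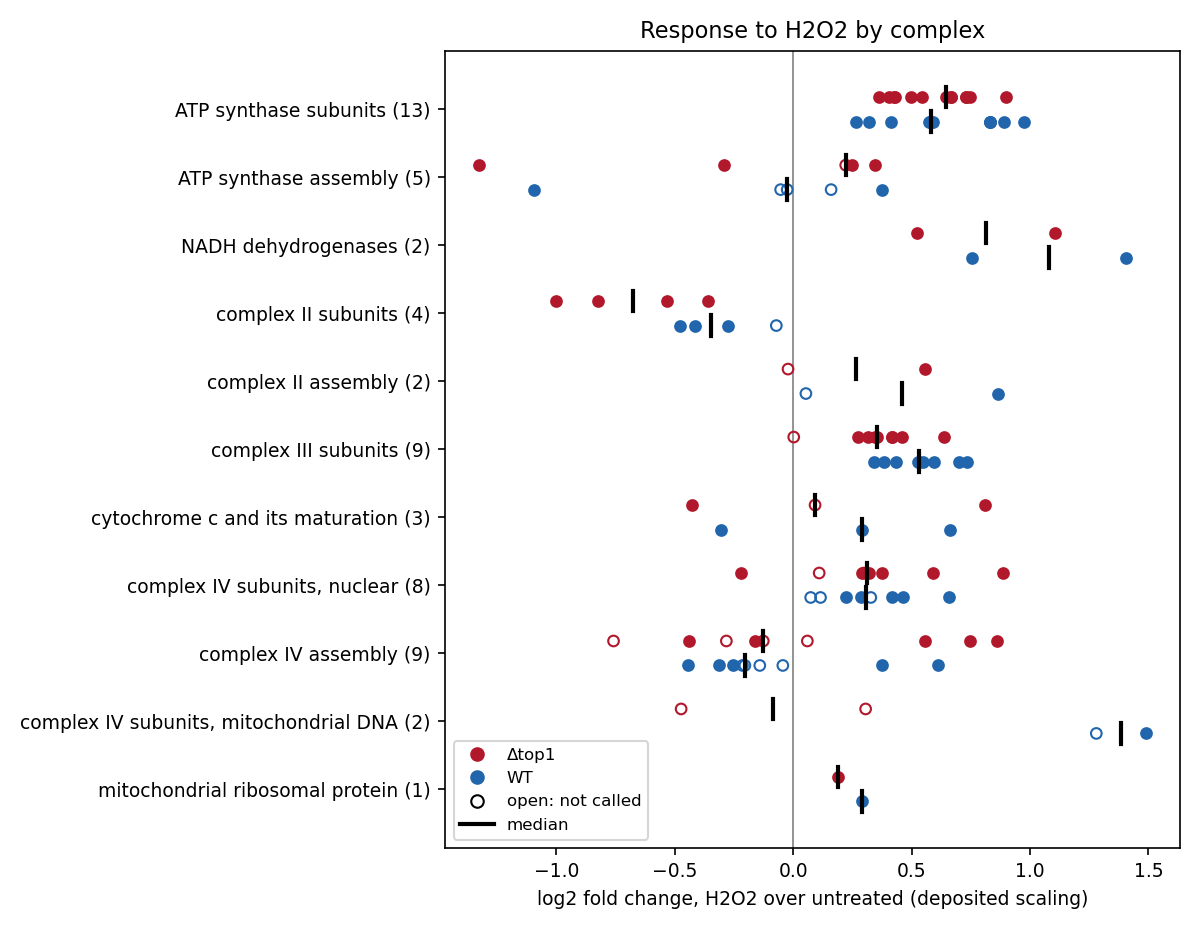
Log2 fold change of each of the 58 genes with H2O2 (horizontal axis, treated over untreated, deposited scaling), by complex, with Δtop1 cells above WT cells in each row. Each point is a gene, open points were not called by limma at an adjusted p of 0.1, and black bars are medians. The 13 ATP synthase subunits lie to the right of 0 and the 4 complex II subunits to the left in both strains.

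All 4 subunits of complex II fell in Δ*top1* cells and 3 of 4 fell in WT cells, with median log2 changes of −0.68 and −0.34. This is the enzyme that also serves the citric acid cycle. *sdh2*, its iron-sulfur subunit, had 2501 and 2763 normalized counts in treated Δ*top1* cells, against 5295 and 5223 in untreated ones. In WT cells it had 3922 and 3031 after H2O2, against 5024 and 4586 without. The treated libraries were below the untreated ones in each strain, and *sdh2* fell by 1.00 ± 0.13 on the log2 scale (SE, limma adjusted p = 0.000157) in Δ*top1* and by 0.48 ± 0.13 (adjusted p = 0.00928) in WT cells. *sdh4*, annotated as the membrane anchor Tim18, which the protein import complex TIM22 also uses, had 1023 and 1263 normalized counts in treated Δ*top1* cells, against 1961 and 2061 in untreated ones. In WT cells the same gene had 1311 and 1300 after H2O2, against 1662 and 1818 without. Again no treated library reached an untreated one of its strain, and the log2 changes were −0.82 ± 0.11 (adjusted p = 0.000229) and −0.41 ± 0.11 (adjusted p = 0.0098).

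*sdh3*, the other membrane anchor, had 2899 and 3084 normalized counts in treated Δ*top1* cells, against 4432 and 4223 in untreated ones, and 3521 and 3405 in treated WT cells, against 4352 and 4042 in untreated ones. It fell by 0.53 ± 0.08 (SE) on the log2 scale in Δ*top1* (limma adjusted p = 0.000508) and by 0.28 ± 0.08 in WT cells (adjusted p = 0.0159). *sdh1*, the flavoprotein and the highest complex II subunit per length, had 8907 and 10862 normalized counts in treated Δ*top1* cells, against 12396 and 12858 in untreated ones, and 10164 and 11981 in treated WT cells, against 11015 and 12197 in untreated ones. Its libraries separated in Δ*top1* cells (log2 change of −0.36 ± 0.13, adjusted p = 0.039) and overlapped in WT cells (−0.07 ± 0.13, adjusted p = 0.651). All 4 subunits fell in each strain with the same total, the same upper quartile and quantile normalization, but each of these scalings moves all genes down, with between 40.3% and 56.2% of all genes tested called lower, so none of them could readily lose a fall. Whichever single library was left out, 3 or 4 fell in Δ*top1* cells and 3 in WT cells.

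The decline was numerically deeper in Δ*top1* cells for all 4 subunits, by −0.52 ± 0.18 for *sdh2*, −0.41 ± 0.16 for *sdh4*, −0.29 ± 0.19 for *sdh1* and −0.26 ± 0.12 for *sdh3* on the log2 scale (SE). None of these 4 differences passed the interaction test with all libraries, with limma adjusted p values between 0.172 and 0.433. The difference was −0.71 for *sdh2* without treated WT replicate 2 and −0.56 for *sdh4* without treated Δ*top1* replicate 2. Such fits leave 1 library in a group, so no strain effect is drawn from them. Between the treated strains, *sdh2* and *sdh3* were called lower in Δ*top1* cells (−0.39 ± 0.13, adjusted p = 0.0592, and −0.21 ± 0.08, adjusted p = 0.0984). The *sdh3* call was lost in 6 of the 8 fits that left out a library (all but those without an untreated WT library), and with each of the other scalings (−0.18 to −0.06). The *sdh2* call was lost without treated WT replicate 1 (log2 difference of −0.21) or without treated Δ*top1* replicate 1 (−0.32), and also with the same total (−0.24) or quantile normalization (−0.34).

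The stretch before each complex II gene is shown because the 4 genes share a feature that was not used to choose them. The letters CCAAT, the sequence bound by the Php complex of this yeast, stood on one strand or the other in the 250 bases before the annotated transcript start of all 4 subunits, against 35.4% of the 5144 coding genes of the annotation with such a window. The 100 bases just before the start, from RefSeq's ASM294v3 genome and 5′ to 3′ on the strand of the gene, read as follows, with CCAAT in capitals.
sdh1: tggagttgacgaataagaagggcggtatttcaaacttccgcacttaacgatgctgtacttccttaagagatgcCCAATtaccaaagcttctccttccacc
sdh2: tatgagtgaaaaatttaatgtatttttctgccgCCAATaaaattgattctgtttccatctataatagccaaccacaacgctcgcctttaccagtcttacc
sdh3: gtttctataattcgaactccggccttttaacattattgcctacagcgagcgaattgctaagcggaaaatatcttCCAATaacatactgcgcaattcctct
sdh4: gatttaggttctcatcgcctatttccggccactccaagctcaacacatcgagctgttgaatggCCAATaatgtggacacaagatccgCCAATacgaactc
The windows lie at chrI:3798463-3798562 on the minus strand for *sdh1*, chrI:1895331-1895430 on the plus strand for *sdh2*, chrIII:136649-136748 on the minus strand for *sdh3* and chrII:2035960-2036059 on the plus strand for *sdh4*. A match is a description of letters and not a bound site.

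The ATP synthase went the other way. All 13 nuclear subunits rose in each strain, by a median log2 change of 0.64 in Δ*top1* (0.36 to 0.90) and 0.58 in WT cells (0.27 to 0.98). The list covers the catalytic head (*atp1* and *atp2*), the central stalk (*atp3*, *atp15* and *atp16*), the peripheral stalk (*atp4*, *atp5*, *atp7* and *atp14*) and the membrane part (*atp17*, *atp18*, *atp19* and *atp20*). No subunit was called lower under any scaling, while the number called higher was 11 in Δ*top1* and 9 in WT cells with the same total and 9 and 10 with the same upper quartile, and 10 and 8 with quantile normalization. Of all genes tested, 26.9% and 21.3%, 26.5% and 24.3%, and 32.7% and 32.7% were called higher under these scalings. Leaving out any single library gave 12 or 13 calls in Δ*top1* and 11 to 13 in WT cells. Per kb of annotated transcript, *atp2*, the beta subunit of the head, was the highest of the subunits, with means of 18894 normalized counts per kb in treated and 14265 in untreated Δ*top1* cells, and 19997 in treated and 13260 in untreated WT cells. The lowest was *atp19*, subunit k, at 3928 and 2471 per kb in treated and untreated Δ*top1* cells and 2953 and 2366 in treated and untreated WT cells.

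Among the stalk subunits, *atp15*, the epsilon subunit, had 3129 and 3421 normalized counts in treated Δ*top1* cells, against 1721 and 1790 in untreated ones, and 3245 and 2901 in treated WT cells, against 1950 and 1526 in untreated ones. The groups were apart in both strains (log2 changes of 0.90 ± 0.12, limma adjusted p = 0.00027, and 0.83 ± 0.12, adjusted p = 0.000418). *atp14*, subunit h of the peripheral stalk, had 2969 and 2953 in treated Δ*top1* cells, against 1898 and 1828 in untreated ones, and 3664 and 3888 in treated WT cells, against 2042 and 1802 in untreated ones. It rose in both (0.67 ± 0.09, adjusted p = 0.00019, and 0.98 ± 0.09, adjusted p = 2.12e-05), and both treated Δ*top1* libraries lay below both treated WT libraries (−0.35 ± 0.09, adjusted p = 0.0273), a call lost without treated WT replicate 2 (−0.31) or treated Δ*top1* replicate 1 (−0.35) and with the same total (−0.20). *atp7*, subunit d, had 3143 and 3463 in treated Δ*top1* cells, against 1960 and 2020 in untreated ones, and 3597 and 3763 in treated WT cells, against 2084 and 1889 in untreated ones, with log2 changes of 0.73 ± 0.09 (adjusted p = 0.000121) and 0.89 ± 0.09 (adjusted p = 3.85e-05).

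Of the small membrane subunits, *atp18* and *atp19* were the only 2 of the 13 that were called higher in treated Δ*top1* than in treated WT cells. *atp18* (subunit i/j) had 1599 and 1920 normalized counts in treated Δ*top1* cells, against 1310 and 1236 in treated WT cells, with 986 and 1130 in untreated Δ*top1* cells against 1149 and 972 in untreated WT cells. *atp19* had 1494 and 1672 in treated Δ*top1* cells, against 1133 and 1247 in treated WT cells, with 975 and 1016 in untreated Δ*top1* cells against 1015 and 892 in untreated WT cells. The treated libraries of the strains did not overlap for either gene (0.46 ± 0.13, limma adjusted p = 0.037, and 0.41 ± 0.10, adjusted p = 0.0287). The interaction of strain and treatment was not called for them (0.46 ± 0.18, adjusted p = 0.211, and 0.35 ± 0.15, adjusted p = 0.242). Both strain calls were lost without treated Δ*top1* replicate 2 (log2 differences of 0.33 and 0.33), the *atp18* call also without treated WT replicate 2 (0.42), and the *atp19* call also without treated WT replicate 1 (0.34).

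Since the 2 complexes were read in the same libraries, their ratio does not depend on a factor that scales a whole library. The mean log2 level of the ATP synthase subunits minus that of the complex II subunits was 0.70 and 0.61 in treated Δ*top1* cells, against −0.62 and −0.61 in untreated Δ*top1* cells, and 0.38 and 0.46 in treated WT cells, against −0.46 and −0.59 in untreated WT cells. All 4 treated libraries were above all 4 untreated ones, and both treated Δ*top1* libraries were above both treated WT libraries. With 2 libraries against 2, an exact permutation test cannot go below p = 0.333, so no test was made of it.

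**Figure D2:**
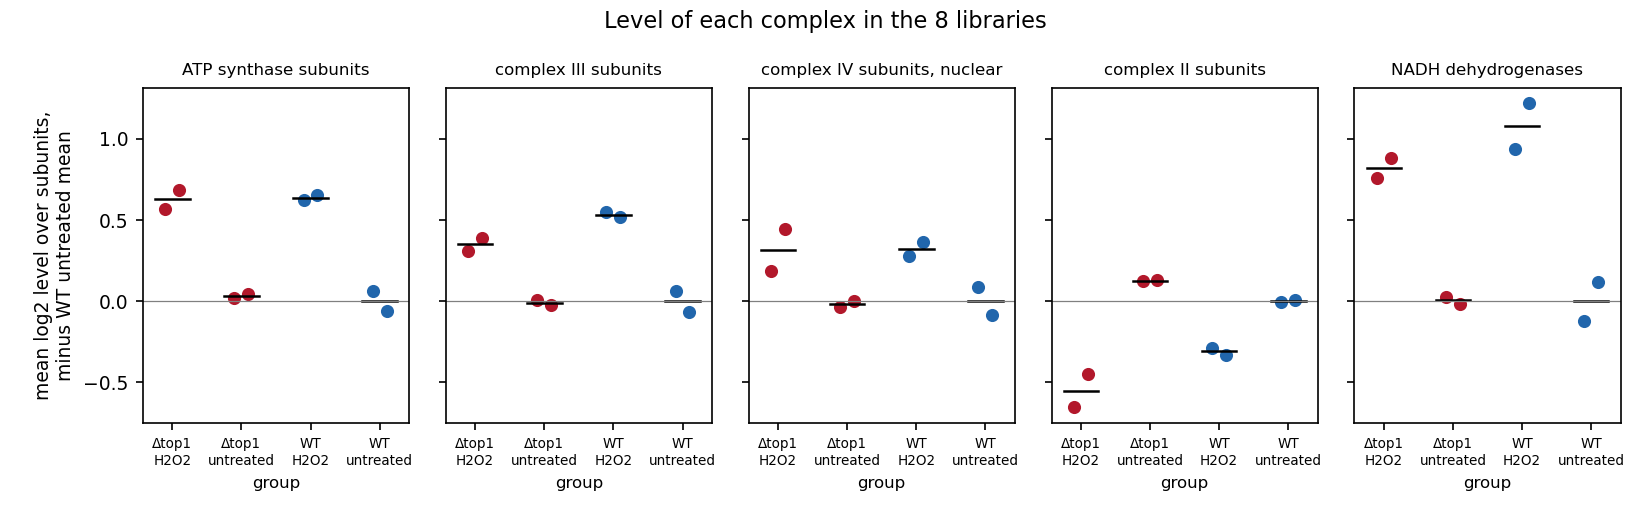
Mean log2 level of the subunits of 5 complexes in each of the 8 libraries, minus the mean of the untreated WT libraries (vertical axis, log2 units, deposited scaling). Points are libraries and bars are group means. In treated cells the ATP synthase libraries sit between 0.57 and 0.69, and the complex II libraries between −0.65 and −0.45 in Δtop1 and between −0.33 and −0.29 in WT.

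Of the 5 factors that assemble the ATP synthase, 2 rose and 2 fell in Δ*top1* cells and 1 rose and 1 fell in WT cells, while with the same total 0 rose and 2 fell in Δ*top1* and 0 rose and 4 fell in WT cells, beside 45.8% and 56.2% of all genes tested called lower there. Under the deposited scaling 35.9% of all genes tested were called higher and 34.9% lower in Δ*top1*, and 36.4% and 35.6% in WT cells. *atp23*, a peptidase that in budding yeast matures a mitochondrially made subunit, had the deepest fall of the 58 genes, with 305 and 300.4 normalized counts in treated Δ*top1* cells, against 805 and 720.4 in untreated ones, and 384 and 349 in treated WT cells, against 826 and 740.3 in untreated ones. The log2 changes were −1.33 ± 0.11 (limma adjusted p = 1.33e-05) and −1.09 ± 0.11 (adjusted p = 4.39e-05). *atp12*, a chaperone of the catalytic head and the highest of the 5 per length, had 947 and 998 in treated Δ*top1* cells, against 773 and 756 in untreated ones, and 921 and 899 in treated WT cells, against 833 and 796 in untreated ones. It was called in Δ*top1* cells (0.35 ± 0.08, adjusted p = 0.00588, lost with the same total at 0.14 and the same upper quartile at 0.11) and not in WT cells (0.16 ± 0.08, adjusted p = 0.118), and no difference of the responses was called in the interaction test (0.19 ± 0.12, adjusted p = 0.426). *atp10* was the lowest per length, with means between 121 and 141 normalized counts per kb in the 4 groups, and was not called in either strain.

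*atp11*, the other chaperone of the catalytic head, was 1 of 2 genes of the 58 whose response differed between the strains in the interaction test (2 of 58, or 3.45%, against 3.96% of all genes tested). It had 607 and 638 normalized counts in treated Δ*top1* cells, against 825 and 702 in untreated ones, and 801 and 874 in treated WT cells, against 667 and 625 in untreated ones. Treated cells were lower in Δ*top1* (−0.29 ± 0.11, limma adjusted p = 0.0428) and higher in WT cells (0.37 ± 0.11, adjusted p = 0.0145), without overlap in either strain. Treated Δ*top1* cells were below treated WT cells (−0.43 ± 0.11, adjusted p = 0.0296). That strain call was lost without treated WT replicate 2 (−0.37) or treated Δ*top1* replicate 1 (−0.39), and with the same total (−0.28). The difference of the responses was −0.66 ± 0.15 (adjusted p = 0.0778). It stayed negative, between −0.78 and −0.55, with each library left out, but was called without only 2 of the 8, treated WT replicate 1 and treated Δ*top1* replicate 2. It also lost its call with the same total (−0.49) and the same upper quartile (−0.61), where the log2 change in WT cells was 0.00 and 0.09 and was not called. The annotated transcript overlaps that of *hcr1* on the opposite strand by 386 bases. The *hcr1* transcript was not called with H2O2 in Δ*top1* (−0.09, limma adjusted p = 0.422) or WT cells (0.09, adjusted p = 0.427). It was called lower in treated Δ*top1* than in treated WT cells (−0.27, adjusted p = 0.068), the direction of *atp11*. Its interaction was not called (−0.17, adjusted p = 0.494). Whether reads of the 2 transcripts were told apart was not tested.

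The NADH dehydrogenases had the largest median rise of the nuclear lists, 0.81 in Δ*top1* and 1.08 in WT cells on the log2 scale. *nde1* and *nde2* are both annotated as NADH dehydrogenase, without the side of the inner membrane at which they act. *nde1* had 5549 and 6273 normalized counts in treated Δ*top1* cells, against 2883 and 2609 in untreated ones, and 6631 and 8248 in treated WT cells, against 2708 and 2879 in untreated ones. All treated libraries were above all untreated ones, and the log2 changes were 1.10 ± 0.12 (SE, limma adjusted p = 7.34e-05) and 1.40 ± 0.12 (adjusted p = 1.84e-05). *nde2*, which was the higher of the pair per length in all 4 groups, had 19357 and 20321 normalized counts in treated Δ*top1* cells, against 13557 and 14092 in untreated ones, and 20807 and 24839 in treated WT cells, against 11767 and 15431 in untreated ones (0.52 ± 0.15, adjusted p = 0.015, and 0.75 ± 0.15, adjusted p = 0.00228). Both rose in each strain under the same-total and upper-quartile scalings and without any single library. Calls of the pair with quantile normalization are not given here.

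Complex III rose as well under the deposited scaling, but its calls depended more on the scaling. Of 9 subunits, 8 rose in Δ*top1* and 9 in WT cells, with median log2 changes of 0.36 and 0.53. With the same total 3 rose and 1 fell in Δ*top1* and 2 rose in WT cells, and with the same upper quartile 3 rose and 1 fell in Δ*top1* and 5 rose in WT cells. Quantile normalization left 1 higher and 1 lower in Δ*top1* and 1 higher and 2 lower in WT cells, with medians of 0.07 and 0.14. Of all genes tested, 26.9% in Δ*top1* and 21.3% in WT cells were called higher with the same total. Those shares were 26.5% and 24.3% with the same upper quartile and 32.7% and 32.7% with quantile normalization. Called lower were 45.8% and 56.2%, 49.5% and 52.2%, and 40.3% and 41.0% in the same order. The 2 of 9 in WT cells with the same total was near the share of all genes, and 1 of 9 with quantile normalization was under it. Leaving out a library left between 5 and 8 calls in Δ*top1* cells, with 5 without untreated Δ*top1* replicate 2, and 8 or 9 in WT cells. *qcr1*, a core protein, was the highest per length (8416 and 6966 normalized counts per kb in treated and untreated Δ*top1* cells, 9550 and 6611 in treated and untreated WT cells), and *qcr2*, the other core protein, was the lowest (4295 and 3117, and 4848 and 2976).

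*qcr10*, a small subunit, had 3218 and 3860 normalized counts in treated Δ*top1* cells, against 2156 and 2384 in untreated ones, and 3333 and 3450 in treated WT cells, against 2378 and 2332 in untreated ones. Its log2 changes were 0.64 ± 0.10 (limma adjusted p = 0.00069) and 0.53 ± 0.10 (adjusted p = 0.00196). *rip1*, the Rieske iron-sulfur protein, had 6444 and 7249 in treated Δ*top1* cells, against 5168 and 5059 in untreated ones, and 8513 and 8465 in treated WT cells, against 5160 and 5049 in untreated ones. It rose in both strains (0.42 ± 0.09, adjusted p = 0.00285, and 0.73 ± 0.09, adjusted p = 0.000113, the WT call being lost with quantile normalization at 0.15), and was lower in treated Δ*top1* than in treated WT cells (−0.31 ± 0.09, adjusted p = 0.0393). That strain call was lost without either treated WT library (−0.32 and −0.31) or treated Δ*top1* replicate 1 (−0.23), with the same total (−0.16) and with quantile normalization (−0.16). The whole *rip1* transcript lies within that of *ppa2* on the opposite strand, which itself rose by 0.93 and 1.02. Whether the counting separated their strands is not given in the sources used here, so reads of the pair may not have been told apart. *cyt1*, cytochrome c1, was the 1 subunit not called in Δ*top1* cells, at 7433 and 7816 after H2O2, against 7832 and 7392 without, while it had 8973 and 9482 in treated WT cells, against 7468 and 7099 in untreated ones (0.00 ± 0.09, adjusted p = 0.982, and 0.34 ± 0.09, adjusted p = 0.00835). Its interaction of strain and treatment was not called (−0.34 ± 0.12, limma adjusted p = 0.196).

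CCAAT stood before 7 of the 9 complex III genes too, so the letters were shared by complexes that moved in opposite directions. It stood before 6 of the 13 ATP synthase subunits, 3 of the 8 nuclear complex IV subunits and 30 of the 56 nuclear genes in all (53.6%). For comparison with complex II, the same 100 bases of *qcr10* and *qcr6*, which rose in both strains, and of *cyt1*, which rose in WT cells, are given with CCAAT in capitals.
qcr10: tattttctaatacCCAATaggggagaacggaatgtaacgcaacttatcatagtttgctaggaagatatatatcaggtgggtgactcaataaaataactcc
qcr6: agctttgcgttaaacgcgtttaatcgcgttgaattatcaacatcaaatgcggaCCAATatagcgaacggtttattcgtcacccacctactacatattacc
cyt1: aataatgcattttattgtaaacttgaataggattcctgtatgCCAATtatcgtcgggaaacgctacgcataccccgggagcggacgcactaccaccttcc
These windows are chrII:2884222-2884321 on the plus strand, chrII:4345542-4345641 on the minus strand and chrII:2073136-2073235 on the plus strand of ASM294v3. A direct contrast of position was the pair *qcr1* and *sdh4*, neighbours on chromosome II that are transcribed away from each other with 1160 bases between their starts. *qcr1* had 16862 and 17778 normalized counts in treated Δ*top1* cells, against 14627 and 14046 in untreated ones, and 19520 and 19789 in treated WT cells, against 13530 and 13680 in untreated ones (0.27 ± 0.10, limma adjusted p = 0.0366, and 0.53 ± 0.10, adjusted p = 0.00141), while *sdh4* fell in both strains as given above.

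For cytochrome c and its maturation, 1 of 3 genes rose and 1 fell in Δ*top1* cells and 2 rose and 1 fell in WT cells. Of all genes tested, 35.9% rose and 34.9% fell in Δ*top1* cells, and 36.4% rose and 35.6% fell in WT cells. The counts in Δ*top1* cells were near those shares. *cyc3*, the heme lyase of cytochrome c, had 2425 and 2406 normalized counts in treated Δ*top1* cells, against 1385 and 1367 in untreated ones, and 2394 and 2470 in treated WT cells, against 1504 and 1573 in untreated ones (0.81 ± 0.07, limma adjusted p = 2.21e-05, and 0.66 ± 0.07, adjusted p = 7.64e-05). *cyt2*, the heme lyase of cytochrome c1, went down, with 914 and 947 in treated Δ*top1* cells, against 1241 and 1262 in untreated ones, and 1127 and 934 in treated WT cells, against 1326 and 1209 in untreated ones (−0.43 ± 0.11, adjusted p = 0.00716, and −0.30 ± 0.11, adjusted p = 0.033). The WT call was lost without untreated WT replicate 1 (−0.24) or treated WT replicate 2 (−0.17). The heme lyases for these related cytochromes thus moved in opposite directions in both strains. *cyc1*, cytochrome c itself and the highest of the 3 per length, had 9697 and 10062 in treated Δ*top1* cells, against 9811 and 8746 in untreated ones, and 11903 and 11834 in treated WT cells, against 10039 and 9383 in untreated ones, and was called in WT cells (0.29 ± 0.10, adjusted p = 0.0271) but not in Δ*top1* cells (0.09 ± 0.10, adjusted p = 0.422). The interaction of strain and treatment was not called for *cyc1* (−0.20 ± 0.14, limma adjusted p = 0.469). The median of the 3 genes turned from 0.09 in Δ*top1* and 0.29 in WT cells under the deposited scaling to −0.11 and −0.08 with the same total.

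Of the 8 nuclear subunits of complex IV, 5 rose and 1 fell in Δ*top1* cells, and 5 rose and 0 fell in WT cells, with median log2 changes of 0.31 and 0.31. This rise was not held across scalings, since with the same total the median became 0.11 in Δ*top1* and −0.07 in WT cells, and 2 rose and 1 fell in Δ*top1* and 1 rose and 1 fell in WT cells. Under the deposited scaling 35.9% of all genes tested were called higher and 34.9% lower in Δ*top1*, and 36.4% and 35.6% in WT cells. With the same total these shares were 26.9% and 45.8% in Δ*top1*, and 21.3% and 56.2% in WT cells. *cox13* had 4751 and 5149 normalized counts in treated Δ*top1* cells, against 3278 and 3294 in untreated ones, and 5226 and 5208 in treated WT cells, against 3467 and 3157 in untreated ones (0.59 ± 0.08, limma adjusted p = 0.000334, and 0.66 ± 0.08, adjusted p = 0.000174). *cox7*, the lowest per length, had 429 and 534 in treated Δ*top1* cells, against 245 and 273 in untreated ones, and 359 and 387 in treated WT cells, against 343 and 257 in untreated ones. It was called in Δ*top1* (0.89 ± 0.17, adjusted p = 0.00174) and not in WT cells (0.33 ± 0.17, adjusted p = 0.117), with no interaction called (0.56 ± 0.24, adjusted p = 0.246). *cox12* was the highest per length, at 7570 and 6172 normalized counts per kb in treated and untreated Δ*top1* cells and 7125 and 5843 in treated and untreated WT cells.

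*cox5* was the 1 nuclear complex IV subunit called lower with H2O2, in Δ*top1* cells only. It had 3133 and 3560 normalized counts in treated Δ*top1* cells, against 4026 and 3754 in untreated ones, and 4563 and 4541 in treated WT cells, against 4662 and 4011 in untreated ones. Treated Δ*top1* libraries were the lowest of the 8, below treated WT libraries by −0.45 ± 0.10 on the log2 scale (limma adjusted p = 0.0226), a call lost without treated Δ*top1* replicate 1 (−0.35). Its fall with H2O2 in Δ*top1* cells was small (−0.22 ± 0.10, adjusted p = 0.0929) and lost its call without either treated WT library, either untreated Δ*top1* library or treated Δ*top1* replicate 1 (−0.27 to −0.13), whereas the log2 change in WT cells was 0.07 ± 0.10 (adjusted p = 0.549). The call in Δ*top1* cells was also lost in limma without a variance trend (−0.22) and in DESeq2 (−0.22).

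Mitochondrial DNA gave few reads in these poly(A)-selected libraries. *cox1* and *cox2* had between 6 and 21 reads in 7 of the 8 libraries, and 75 and 70 reads in treated WT replicate 1. The same library held 28 reads of *cox3*, 37 of *atp9* and 17 of *cob1*, against at most 8 of any of the 3 in the other 7. *cox2* was thereby called higher with H2O2 in WT cells (6.60 and 13.4 normalized counts in treated Δ*top1* cells, 12.4 and 14.7 in untreated Δ*top1* cells, 76.2 and 18.6 in treated WT cells, 17.4 and 9.40 in untreated WT cells, log2 change of 1.49 ± 0.70, limma adjusted p = 0.0908) and lower in treated Δ*top1* than in treated WT cells (−1.90 ± 0.70, adjusted p = 0.087). Without treated WT replicate 1 those values were 0.50 and −0.91, and neither was called. Each of the 2 calls was lost in 5 of the 8 fits that left out a library. Without that library 32 of the 58 genes rose and 7 fell with H2O2 in WT cells, 12 of 13 ATP synthase and 8 of 9 complex III subunits rose, and 3 of 4 complex II subunits fell.

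Of 9 complex IV assembly factors, 3 rose and 2 fell in Δ*top1* cells and 2 rose and 3 fell in WT cells, beside 35.9% of all genes higher and 34.9% lower in Δ*top1* and 36.4% higher and 35.6% lower in WT cells. With the same total 2 rose and 5 fell in Δ*top1* and 1 rose and 6 fell in WT cells, beside 45.8% and 56.2% of all genes tested called lower. *cox10*, which makes the farnesylated heme on the way to heme A, had 1001 and 1056 normalized counts in treated Δ*top1* cells, against 622 and 602 in untreated ones, and 941 and 1026 in treated WT cells, against 663 and 625 in untreated ones (0.75 ± 0.09, limma adjusted p = 0.000128, and 0.61 ± 0.09, adjusted p = 0.000416). *cox18*, which in budding yeast inserts Cox2 into the membrane, went down, with 271 and 286 in treated Δ*top1* cells, against 405 and 352 in untreated ones, and 268 and 263 in treated WT cells, against 351 and 373 in untreated ones (−0.44 ± 0.12, adjusted p = 0.00999, and −0.45 ± 0.12, adjusted p = 0.00908, the WT call being lost with quantile normalization at −0.18). *cox19*, a copper chaperone, had 148 and 162 in treated Δ*top1* cells, against 177 and 201.3 in untreated ones, and 154 and 154 in treated WT cells, against 191 and 191 in untreated ones. It was called in WT cells (−0.31 ± 0.14, adjusted p = 0.0759, lost without any 1 of 6 libraries, at −0.32 to −0.31) and not in Δ*top1* cells (−0.28 ± 0.14, adjusted p = 0.105). The copper chaperone *cox17* was the highest of these factors per length, at 1261 and 855 normalized counts per kb in treated and untreated Δ*top1* cells and 1188 and 928 in treated and untreated WT cells. Per kb of coding sequence *cox14* was above it in untreated WT cells, at 3793 against 1643. *cox1101* and *cox1102*, tandem genes for Cox11 fused to Rsm22, share 98.6% of their 31-base words, so their reads could have been split between them and their separate values are uncertain. *cox1102* was the lowest per length and had 579 and 195 normalized counts in treated Δ*top1* cells, against 617 and 525 in untreated ones, and 564 and 432 in treated WT cells, against 586 and 552 in untreated ones.

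*cox14*, which in budding yeast ties the making of Cox1 to its assembly, was the other gene with a called difference of responses. It had 1069 and 1202 normalized counts in treated Δ*top1* cells, against 646 and 604 in untreated ones, and 769.8 and 668 in treated WT cells, against 893 and 699.8 in untreated ones. Treated Δ*top1* libraries were above all others, and the WT groups overlapped. The log2 change was 0.86 ± 0.14 (limma adjusted p = 0.000629) in Δ*top1* and −0.14 ± 0.14 (adjusted p = 0.389) in WT cells, the difference of the responses was 1.00 ± 0.19 (adjusted p = 0.0543), and treated Δ*top1* cells exceeded treated WT cells by 0.66 ± 0.14 (adjusted p = 0.0162). The interaction stayed positive, 0.82 or more, without each library, but lost its call without untreated WT replicate 1, either untreated Δ*top1* library or treated Δ*top1* replicate 1. The treated-strain difference kept its call in all but the alternative that asked for a 2-fold change.

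On chromosome III *cox14* (59097 to 60867, minus strand, ASM294v3) lies directly before *ctt1* (56654 to 58833, minus strand), the catalase gene, with 263 bases between the transcripts. *ctt1* had 134273 and 147064 normalized counts in treated Δ*top1* cells, against 3243 and 3069 in untreated ones, and 50464 and 65380.0 in treated WT cells, against 4185 and 4476 in untreated ones (log2 changes of 5.48 and 3.73). The interaction was called for *ctt1* as well (1.75, limma adjusted p = 0.013). On the other side, 1946 bases away, *rrp45* had an interaction of 0.40 that was not called (adjusted p = 0.165). Whether transcription of one gene bears on reads of the next was not tested. The 100 bases before *cox14* held the letters TGACGT, which the stress factor Atf1 binds, on the opposite strand, and are shown with those bases in capitals.
cox14: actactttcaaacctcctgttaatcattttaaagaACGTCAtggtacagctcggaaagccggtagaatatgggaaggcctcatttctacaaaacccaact
The window is chrIII:60868-60967 on the minus strand. TGACGT stood in the 250 bases before 3 of the 56 nuclear genes (5.36%), against 5.54% of all coding genes, the others being *atp10* and *rip1*, and CAGTCAC, the core of the HomolD element known from ribosomal protein genes, before 0 of 56 against 4.49%. *cox14* and *qcr2* were the 2 genes of the 56 within 100 kb of a chromosome end.

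**Figure D3:**
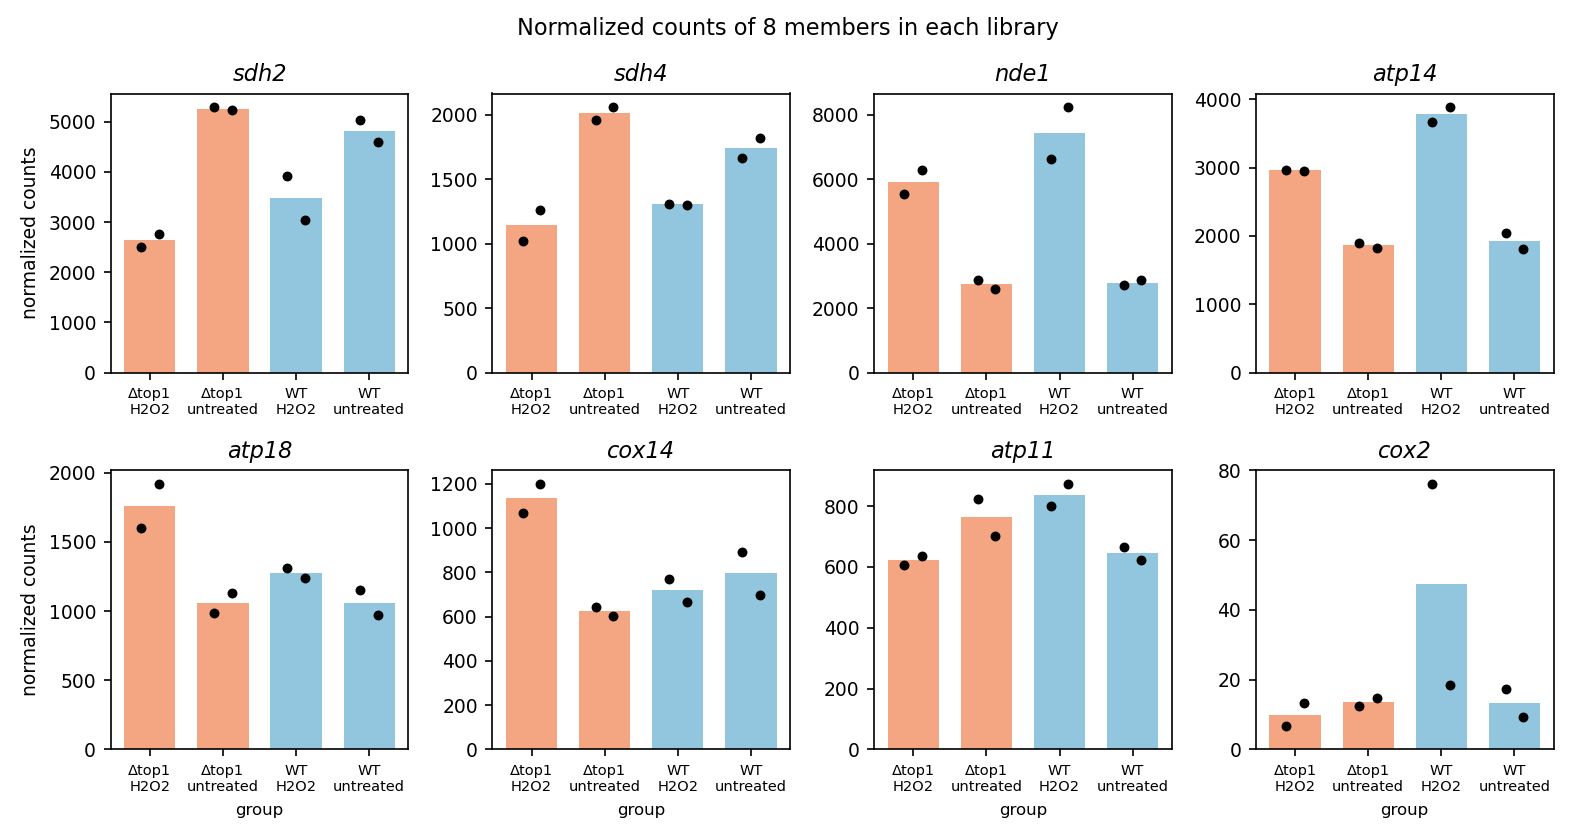
Normalized counts (vertical axis, from 0) of 8 genes in the 4 groups. Bars are means of 2 libraries and points are the libraries. The treated Δtop1 libraries of cox14 (1069 and 1202) are above the other 6, and cox2 is high in treated WT replicate 1 alone (76.2).

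Of the remaining genes, *sdh8*, an assembly factor of complex II, rose while the subunits fell, with 594 and 629.7 normalized counts in treated Δ*top1* cells, against 406 and 426 in untreated ones, and 803 and 821 in treated WT cells, against 501 and 397 in untreated ones. The log2 changes were 0.56 ± 0.12 (limma adjusted p = 0.00395) and 0.86 ± 0.12 (adjusted p = 0.000326), and treated Δ*top1* cells were below treated WT cells (−0.41 ± 0.12, adjusted p = 0.0488). That strain call was lost without treated WT replicate 1 or 2 or without treated Δ*top1* replicate 1 (−0.42 to −0.37), and with the same total (−0.26). *sdh7*, the other such factor and the lower per length, was not called with H2O2. *cox24* is annotated as mitochondrial ribosomal protein mS38 and was kept apart from complex IV. It had 1658 and 1623 in treated Δ*top1* cells, against 1463 and 1419 in untreated ones, and 1946 and 1926 in treated WT cells, against 1649 and 1520.2 in untreated ones (0.19 ± 0.08, adjusted p = 0.0629, and 0.29 ± 0.08, adjusted p = 0.0103), a direction that turned with the same total (−0.01 and −0.08).

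Without H2O2 no difference between the strains was called. None of the 58 genes was called between untreated Δ*top1* and untreated WT cells (0, against 0.618% of all genes tested) in limma, edgeR or DESeq2, and 2 of 58 had an unadjusted p under 0.05 in limma, against 5.36% of all genes. After H2O2, 4 genes were higher in Δ*top1* cells (6.90%, against 17.1%) and 13 lower (22.4%, against 14.7%). The higher ones were *cox14*, *atp18*, *atp19* and *cox1101*, and the lower ones included *cox5*, *atp11*, *atp14*, *rip1*, *cyt1*, *nde1*, *sdh2* and *sdh8*. This tilt depended on the scaling and on single libraries. With the same total 7 were higher and 2 lower, beside a median of all genes of 0.16. Without treated Δ*top1* replicate 1 the tilt of the calls turned round, while calls were also fewer over all genes tested. The median log2 difference of the 58 genes was −0.02 there, against −0.11 with all libraries. That median was −0.08 without treated WT replicate 1, −0.07 without treated WT replicate 2 and −0.16 without treated Δ*top1* replicate 2. Of the 17 calls, 1 held in all 8 fits that left out a library, that of *cox14*. Log2 changes with H2O2 of the 56 nuclear genes in Δ*top1* and in WT cells had a Pearson correlation of 0.84 across genes, against 0.91 across all 5019 genes, where genes are not independent replicates.

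**Figure D4:**
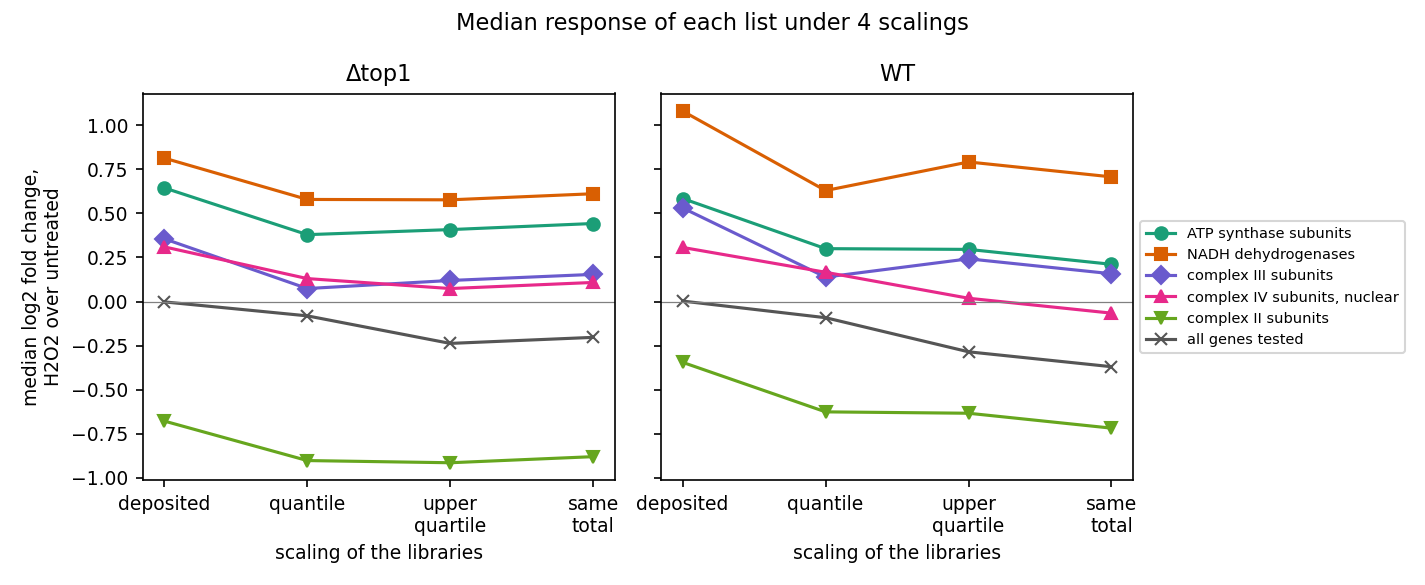
Median log2 change with H2O2 (vertical axis) of 5 lists and of all genes tested under 4 ways of scaling the libraries (horizontal axis), with Δtop1 cells on the left and WT cells on the right. The ATP synthase stays above 0 (0.21 or more) and complex II below 0 (−0.34 or less) under each, while nuclear complex IV falls to −0.07 in WT cells with the same total.

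Genes that the names did not take but that serve the same pathway were listed as well, and 25 of the 33 listed were tested. Of these 17 rose and 3 fell in Δ*top1* cells, beside 35.9% of all genes tested higher and 34.9% lower. In WT cells 13 rose and 3 fell, beside 36.4% higher and 35.6% lower. Coenzyme Q carries electrons between the dehydrogenases and complex III. Of its synthesis genes tested, 8 of 8 rose in Δ*top1* and 6 of 8 in WT cells (medians of 0.45 and 0.36). With the same total 5 and 2 rose, beside 26.9% and 21.3% of all genes tested called higher. The median in WT cells turned to −0.01 there. The following genes were chosen after their values were seen. *gut2*, the mitochondrial glycerol-3-phosphate dehydrogenase that also feeds electrons to coenzyme Q, had 40074 and 43893 normalized counts in treated Δ*top1* cells, against 1658 and 1637 in untreated ones, and 36777 and 42178 in treated WT cells, against 1511 and 1744 in untreated ones (4.67 ± 0.11 and 4.60 ± 0.11, limma adjusted p = 2.77e-08 and 3.12e-08). That rise was far above that of any of the 58 genes. *oxa102*, for insertion of proteins into the inner membrane, had 452 and 396 normalized counts in treated Δ*top1* cells, against 1189 and 1094 in untreated ones, and 507 and 368 in treated WT cells, against 1232 and 1229 in untreated ones (−1.43 ± 0.15, adjusted p = 5.72e-05, and −1.51 ± 0.15, adjusted p = 4.27e-05). Of the 7 complex IV assembly and insertion genes tested in this list, 1 rose and 2 fell in Δ*top1* and 0 rose and 2 fell in WT cells. Among them *oxa101* did not fall (0.22 ± 0.09, adjusted p = 0.0648, in Δ*top1* and 0.01 ± 0.09, adjusted p = 0.946, in WT cells). *php4*, which in low iron turns the CCAAT-binding Php complex of this yeast into a repressor of iron-using genes, had 2966 and 2835 normalized counts in treated Δ*top1* cells, against 997 and 932 in untreated ones, and 4894 and 3482 in treated WT cells, against 1173 and 1087 in untreated ones (1.59 ± 0.15, adjusted p = 2.42e-05, and 1.87 ± 0.15, adjusted p = 1.01e-05). *php4* was called lower in treated Δ*top1* than in treated WT cells (−0.51 ± 0.15, limma adjusted p = 0.0417). Of the 4 listed CCAAT-binding factors, 3 rose and 1 fell in each strain. The one that fell was *php2* (−0.54 ± 0.13, adjusted p = 0.00558, in Δ*top1* and −0.37 ± 0.13, adjusted p = 0.0313, in WT cells). The part of *php4* or of the other factors in any change given here was not tested.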

How the data were processed

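RNA from 8 samples, 4 groups with 2 replicates each, had been poly(A)-selected into stranded libraries and read as single 50-base reads. The authors deposited 1 table with a signal per gene and library, the normalized counts of DESeq2, with no columns of their own comparisons and 0 columns left unused. The paper's methods name Salmon on the ASM294v2 transcriptome, whereas the submitters' processing notes name FastQC, Trimmomatic, STAR, HTSeq and DESeq2 with that build, so how reads were assigned to genes was not settled here. Whole reads were recovered from the step between values (99.98% of values within 0.01 reads of a whole number in each library), giving 16090015 to 19899720 reads per library.

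Log2(normalized count + 1) was tested with limma 3.58.1 in R 4.3.3, with 4 group means, trended variances and no replicate block, on 5019 genes with a mean of at least 10, two-sided, called at an adjusted p (Benjamini-Hochberg) under 0.1. Each fit was tested on simulated data first. Alternatives were other pseudocounts, minimums and thresholds, 3 scalings, the count models of edgeR (4.0.16) and DESeq2 (1.42.0) fitted to those whole reads, a fit of the compared groups alone, a replicate block, and each library left out. Per-sample values are given, within each complex and strain, for the called gene with the largest change in each direction, for the 5 largest non-overlapping changes in each direction, for up to 8 genes called between strains and for those called in the interaction. The highest and lowest gene per length of each list and *top1* are given too. Length is that of the annotated transcript, and some ranks differ per kb of coding sequence. In untreated WT cells *sdh3* (7729) was then above *sdh1* (6026), *sdh7* (1839) above *sdh8* (1480) and *atp23* (1404) above *atp12* (930). Likewise *qcr8* (11475) was above *qcr1* (9902), *cox9* (9332) above *cox12* (9045) and *atp19* (4607) above *atp7* (3763). Other values given per sample were chosen after they were seen. The genes and lists were chosen with earlier results of these data known.

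Places, transcript lengths and sequences come from RefSeq's ASM294v3, in which 56 of the 58 genes were found by identifier, and no coordinate was carried between builds. Motifs were searched on both strands. In 12 genes 20% or more of the 31-base words were shared with another coding gene, in 10 of them with one overlapping on the opposite strand (*atp1*, *atp10*, *atp11*, *atp12*, *atp19*, *atp25*, *cox8*, *qcr9*, *rip1* and *sdh7*), and their values are less certain.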

Additional observations from a re-analysis of the deposited data

Results flagged for a closer look

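The response of *cox14* to H2O2 differed between the strains in the interaction test of limma, by 1.00 on the log2 scale, with treated cells higher than untreated in Δ*top1* and overlapping groups in WT cells. The response of *atp11* differed by −0.66, with treated libraries below the untreated ones in Δ*top1* and above them in WT cells. With 2 libraries in each group, a difference within a group does not by itself tell which library stands apart. For mitochondrial DNA, treated WT replicate 1 was above every other library, with 75 reads of *cox1* and 70 of *cox2*. Treated WT replicate 2 had 7 and 15.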

How the results depend on the processing

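Genes that rose with H2O2 in WT cells went from 37 under the deposited scaling to 17 with the same total, 22 with the same upper quartile and 22 with quantile normalization, and genes that fell from 8 to 17 and 16 with the first 2 of these. In Δ*top1* cells 36 became 22, 20 and 23. Of all genes tested, 36.4% were called higher in WT cells under the deposited scaling and 21.3%, 24.3% and 32.7% under the others. Called lower in WT cells were 35.6% of all genes, then 56.2% and 52.2%, beside 13.8%, 29.3% and 27.6% of the 58 genes. In Δ*top1* cells the 35.9% of all genes called higher became 26.9%, 26.5% and 32.7%. Calls between treated strains numbered 17, and 9 with the same total, 11 with quantile normalization, 10 in a fit of the 2 groups alone and 9 at an adjusted p under 0.05. Over all genes tested, 17.1% higher and 14.7% lower became 29.9% and 8.09% with the same total and 13.8% and 12.4% with quantile normalization. Asking also for a 2-fold change left 2 higher and 1 lower in WT cells, 1 higher and 2 lower in Δ*top1* cells, 1 between treated strains and 0 for the interaction. The interaction count of 2 became 1 with the same total, 1 with the same upper quartile, 1 without a variance trend and 0 at 0.05, and a fit of 2 groups alone could not give it. *cox24* turned to −0.0141 and −0.0486 in Δ*top1* cells with the same total and upper quartile and to −0.083 in WT cells with the same total. The causes were not tested.

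Leaving out single libraries, where the lone library of a group is taken to vary like the others, gave 29 to 38 higher and 6 to 8 lower genes in WT cells, 29 to 36 higher and 6 to 10 lower in Δ*top1* cells (the 6 without untreated Δ*top1* replicate 1), 0 between untreated strains, 5 to 16 between treated strains and 0 to 3 for the interaction. The count between treated strains fell most without treated Δ*top1* replicate 1, as did the calls over all genes tested. It was lower too without either treated WT library, treated Δ*top1* replicate 2 or either untreated Δ*top1* library, where calls over all genes tested were also fewer. For the interaction it was 0 without untreated WT replicate 1, either untreated Δ*top1* library or treated Δ*top1* replicate 1, and 1 without untreated WT replicate 2. Replicate numbers are shared by the groups, but same-numbered libraries correlated in their deviations by 0.066 to 0.617, positive in all 6 pairs of groups and over 0.1 in 5 of them. The labels tie the numbers to no shared culture or day, so the block was not taken as the main fit. A replicate block gave 6 interaction calls, beside 8.59% of all genes called higher and 8.93% lower, *cox14* and *atp11* with *sdh2* (−0.52, adjusted p = 0.0829), *sdh4* (−0.41, adjusted p = 0.0819), *cyt1* (−0.34, adjusted p = 0.0972) and *atp25* (0.30, adjusted p = 0.0968), and left the other counts within 1.5 times. Of the values of single genes under an alternative, 819 kept their direction and side of the threshold, 120 lost the call and 3 reversed. Depth limits *cox1* and *cox2*, with at most 21 reads in 7 of 8 libraries.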
